A study of Mus musculus with 9 samples.

Results

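Fatty acid uptake and oxidation were followed here through 34 genes in mouse skeletal muscle and in muscle cells in culture. They were taken by name for their role in the pathway, and all 34 of 34 were listed among the 46078 genes counted in the cultured cells and the 38293 counted in muscle. The samples were of 4 kinds. GAS is the gastrocnemius, a calf muscle, of untreated adult female C57BL/6 mice (3 libraries). MB are primary mouse myoblasts, the dividing precursors of muscle fibers, kept in serum-rich growth medium and given PBS as the control treatment (2 libraries). MT are myotubes, the multinucleated cells that formed from such myoblasts after 3 days in medium with little serum, also given PBS (2 libraries). The lactate-treated MB received 10 mM sodium-L-lactate in PBS (2 libraries). All samples are labelled C57BL/6, the mice for GAS being C57Bl6/J by the study's methods, and the number of mice behind the cultures is not given in the sources used here.

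Long-chain fatty acids enter muscle with the help of the scavenger receptor CD36 and of transport proteins, are carried by a binding protein, and are joined to coenzyme A by acyl-CoA synthetases. The carnitine shuttle brings them into mitochondria, where a repeated spiral of reactions removes acetyl units and hands electrons to the respiratory chain through the electron transfer flavoprotein. The PPAR and ERR nuclear receptors and their PGC-1 coactivators regulate many genes of this pathway, which is a main energy source of oxidative muscle fibers.

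The bases that precede a RefSeq transcription start are shown for 4 of the 6 genes that were higher in MT than in MB, Cd36, Acsl3, Ucp2 and Ucp3. Acadm, the medium-chain dehydrogenase, is also shown, as its window holds the ERR-type letters AAGGTCA. The start shown for Cd36 lies inside the annotated gene (17781690 to 17888801), and whether MT use it was not tested. The windows of Fabp3 and Acox2 are not printed. Of the printed bases, 21 of Ucp2 and 1 of Ucp3 lie in annotated exons. Sequences are from RefSeq on GRCm38.p6, 5′ to 3′ on the strand of the gene, 250 bases each. Capitals mark AGGTCA, the half-site letters of nuclear receptors such as the PPARs, or CAGCTG, an E-box core bound by MyoD and its relatives, on either strand.
Cd36, chr5:17835897-17836146, - strand: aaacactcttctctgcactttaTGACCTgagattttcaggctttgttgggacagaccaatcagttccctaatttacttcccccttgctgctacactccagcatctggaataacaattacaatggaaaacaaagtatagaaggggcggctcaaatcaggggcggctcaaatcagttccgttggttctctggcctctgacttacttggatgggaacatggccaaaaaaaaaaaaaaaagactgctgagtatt
Acsl3, chr1:78657575-78657824, + strand: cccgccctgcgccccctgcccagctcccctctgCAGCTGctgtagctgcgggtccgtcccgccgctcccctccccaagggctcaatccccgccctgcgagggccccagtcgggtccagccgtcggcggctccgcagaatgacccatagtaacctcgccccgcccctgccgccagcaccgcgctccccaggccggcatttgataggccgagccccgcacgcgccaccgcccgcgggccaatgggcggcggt
Ucp2, chr7:100493108-100493357, + strand: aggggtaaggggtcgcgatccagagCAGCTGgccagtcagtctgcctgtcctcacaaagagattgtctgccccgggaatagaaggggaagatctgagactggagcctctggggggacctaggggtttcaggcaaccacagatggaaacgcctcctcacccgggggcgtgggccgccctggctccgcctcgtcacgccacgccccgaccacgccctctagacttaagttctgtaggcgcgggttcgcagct
Ucp3, chr7:100472741-100472990, + strand: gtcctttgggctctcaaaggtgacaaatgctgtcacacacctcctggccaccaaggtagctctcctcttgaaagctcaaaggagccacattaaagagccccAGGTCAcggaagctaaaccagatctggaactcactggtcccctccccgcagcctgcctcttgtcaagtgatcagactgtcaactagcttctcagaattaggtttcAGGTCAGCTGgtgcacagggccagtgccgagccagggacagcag
Acadm, chr3:153944644-153944893, - strand: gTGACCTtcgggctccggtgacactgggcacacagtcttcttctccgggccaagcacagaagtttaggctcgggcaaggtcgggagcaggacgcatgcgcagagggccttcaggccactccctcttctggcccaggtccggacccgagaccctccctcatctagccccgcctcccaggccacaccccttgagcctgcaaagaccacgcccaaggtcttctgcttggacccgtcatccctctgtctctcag

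RefSeq windows were found for 29 of the 34 genes, 33 windows in all, and not for Acaa2, Cpt1b, Decr1, Lpl or Ppargc1b. In the 250 bases before the start, AGGTCA was found on either strand in 6 of the 33 windows (18.2%), those of Acadm, Acadvl, Cd36, Cpt1a, Echs1 and Ucp3, against 14.0% of all 32851 windows. CAGCTG was found in 8 (24.2%), those of Acsl1, Acsl3, Acsl4, Cpt1a, Ppard, Slc27a1, Ucp2 and Ucp3, against 13.0% of all windows. AAGGTCA, which contains AGGTCA, was found only for Acadm, against 4.08% of all windows, and the longer TCAAGGTCA in none of the 33, against 0.387%. In Ucp3 both kinds of letters overlap, with AGGTCA starting 44 and CAGCTG 40 bases before the start. These are matches of letters in short windows and not measured sites. Some of the genes were neighbors. The starts of Ucp3 and Ucp2 lie 20367 bases apart on chromosome 7 on the same strand, and those of Hadha and Hadhb, which code for both subunits of the mitochondrial trifunctional protein, lie 273 bases apart on chromosome 5 and point away from each other.

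Depth was 19307793 to 19941574 counts in GAS libraries and 5198247 to 10839516 counts in libraries of cultured cells. MT replicate 1 stood apart, with counts on 28599 genes against 15548 to 17965 in the other cultured libraries, and 1 ribosomal RNA gene took 9.20% of MB replicate 1 and 13.8% of lactate-treated MB replicate 1. Muscle markers followed the labels. The summed level of 5 myotube markers was 9004 and 8959 CPM (counts scaled to a common library size) in MT, against 104 to 197 CPM in control and lactate-treated MB, and 4 myoblast markers summed to 881 to 1503 CPM in MB and 193 and 413 CPM in MT. MT also carried fibroblast markers, 13539 and 1877 CPM over 5 genes, where all MB libraries had 2.57 CPM or less. Markers of adipocytes, endothelium and macrophages were present at low level in MT replicate 1 (3.72, 16.8 and 17.9 CPM over 5 genes each) and at 0, 0 and 2.93 CPM in MT replicate 2. Bulk libraries cannot tell a change in the number of cells of a type from a change in RNA per cell.

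GAS showed which of these genes had the highest RNA levels in whole adult muscle. The level of 23 of the 34 genes exceeded 10 RPKM (CPM per kilobase of exon), as against 12.1% of 21250 protein-coding genes, and 20 were above the 90th percentile of protein-coding genes. The highest was Fabp3, the fatty acid binding protein of heart and muscle, at 314 ± 98.9 RPKM (SD, n = 3). It was followed by Etfb at 114 ± 15.8 and Acadvl at 93.3 ± 14.8 RPKM, which code for a subunit of the electron transfer flavoprotein and the very-long-chain dehydrogenase. Ucp3, the uncoupling protein of muscle mitochondria, stood at 78.0 ± 26.2 RPKM and Etfa, the partner of Etfb, at 76.9 ± 8.81 RPKM. Among these 5, neighbors from Etfb down to Etfa overlapped in range, and Fabp3 did not overlap with Etfb. Etfb shares 53.0% of its exonic bases with another gene model on the same strand, and Acadvl 42.9% with Dvl2 on the other strand, and strand handling is not given in the sources used here.

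**Figure D1:**
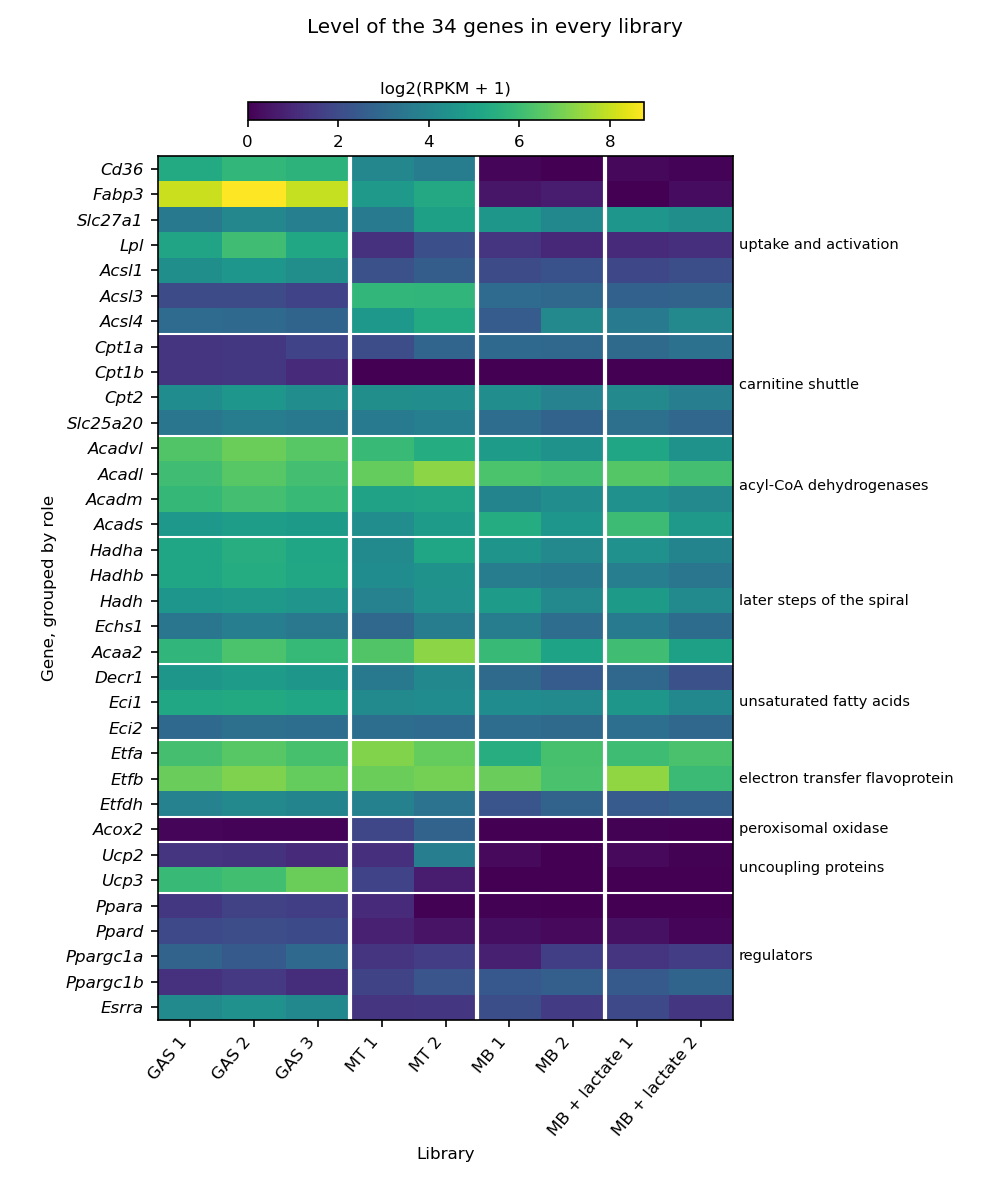
Level of the 34 genes in the 9 libraries, as log2(RPKM + 1), with genes (vertical axis) ordered by role and libraries (horizontal axis) by group. GAS was scaled apart from the cultured libraries. Fabp3 and Ucp3 are bright in GAS and dark in MB, and Acadl, Etfa and Etfb are bright in all libraries.

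The 19 genes of the carnitine shuttle, the spiral and the electron transfer flavoprotein had a median coefficient of variation of 11.5% over the 3 GAS libraries, and their summed level was 673, 842 and 692 RPKM. Some genes of uptake and uncoupling were spread more widely. Lpl, the lipase that frees fatty acids from lipoproteins, was at 354, 682 and 376 CPM, and Fabp3 at 214, 352 and 209 CPM, both highest in GAS replicate 2. Ucp3 was at 184, 211 and 338 CPM, highest in GAS replicate 3. Adipocyte markers summed to 27.8, 33.2 and 51.7 CPM in the same order and endothelial markers to 147, 157 and 134 CPM, and their part in the levels of Lpl and Cd36, which both cell types also use, was not tested. At the other end, Acox2, a peroxisomal oxidase of branched-chain fatty acids and bile acid precursors known from liver, was at 0.305, 0.203 and 0.260 CPM. It was the only one of the 34 with a mean under 1 RPKM in GAS (0.0690 ± 0.0138).

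The 5 regulators spanned a lower range. Esrra, the ERR alpha receptor, was the highest of them at 17.7 ± 2.44 RPKM (SD, n = 3), ahead of the coactivator Ppargc1a at 5.86 ± 1.21, Ppard at 2.99 ± 0.219, Ppara at 1.99 ± 0.281 and Ppargc1b at 1.43 ± 0.271 RPKM. The PGC-1 pair had another order in the cultures. In MT and MB Ppargc1b was above Ppargc1a in every library by level per length, and Ppargc1a made up 37.7% and 33.9% of the pair's summed RPKM in MT, 13.9% and 28.4% in MB, and 25.6% and 24.9% in lactate-treated MB. In GAS it made up 81.4%, 72.8% and 85.4%. GAS was not tested against the cultures because the libraries were made with different protocols and scaled separately. In the cultures 20 of the 34 genes had a mean over 10 RPKM in MT and 14 in MB, beside 18.4% and 18.8% of 21596 protein-coding genes.

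The comparison of MT with MB asks which genes of fat use change as myoblasts form myotubes. Of the 34 genes, 32 passed the filter on low counts, and Cpt1b and Ppara did not. At an adjusted p under 0.05 and an absolute log2FC over 0.5 in edgeR's quasi-likelihood test, 6 of the 32 were higher in MT and 0 lower. This is 18.8% higher, beside 11.0% of the 12921 genes tested, and 0 lower beside 6.86%. The 6 were Cd36, Fabp3 and Acsl3 in uptake and activation, Acox2 in peroxisomes, and Ucp2 and Ucp3 in uncoupling. All but Acsl3 had 10 counts or fewer in each MB library and passed the filter through MT, so that they could only be higher there, and the count and the median below describe the genes without being a test of them. The fibroblast markers of MT rose beside these genes, and their part in the rise was not tested. None of the 18 tested genes of the carnitine shuttle, the mitochondrial spiral and the electron transfer flavoprotein, and none of the 4 tested regulators, passed. With an unadjusted p under 0.05 in the same test there were 13 of the 32, beside 4197 of the 12921 genes tested. The log2FC was positive in 25 and negative in 7, beside 6761 and 6160 of all genes tested. The median log2FC was 0.79, also with Acox2 and Ucp3 at their lower bounds, against 0.07 over all genes tested. Both MT libraries were above both MB libraries in 19 of the 32 and below them in 3, where 32.9% and 29.2% of all genes tested did the same.

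**Figure D2:**
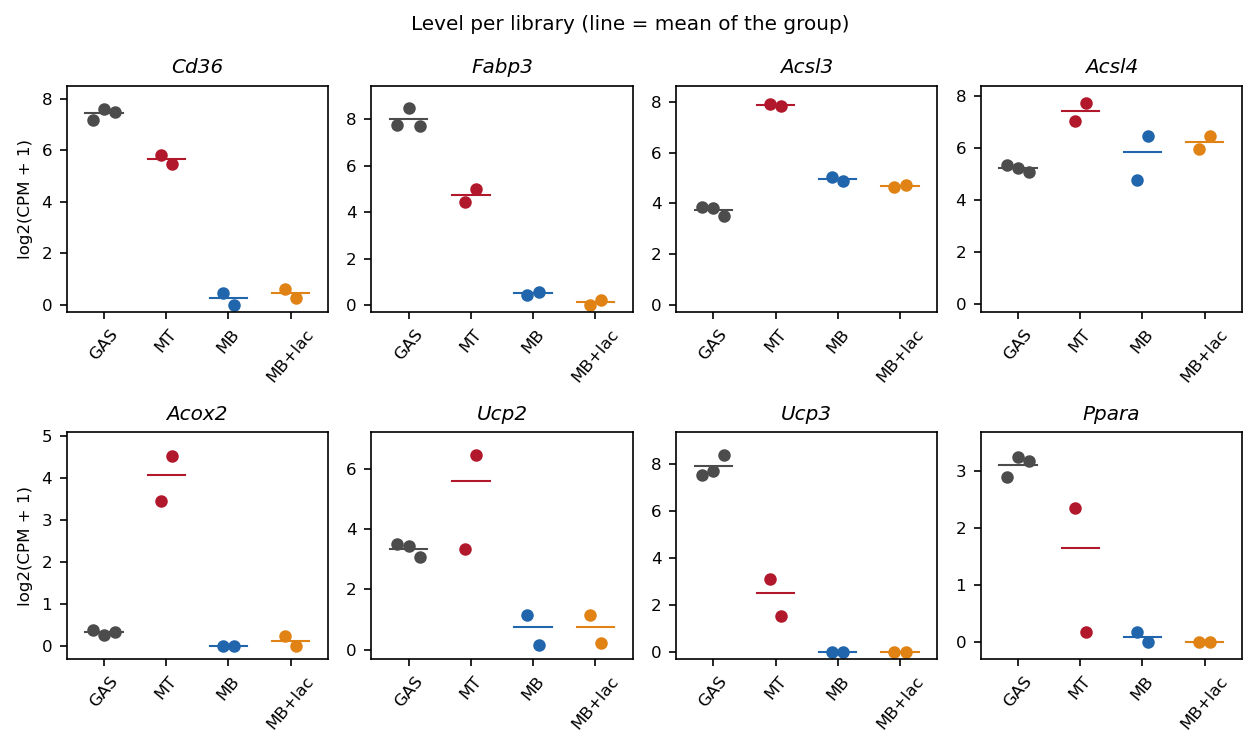
Level of 8 genes by group as log2(CPM + 1), 1 point per library and a line at the mean. Cd36, Fabp3, Acox2 and Ucp3 sit at or near 0 in MB with and without lactate and above it in both MT libraries, while Ppara is raised in 1 of the MT libraries only. Acsl3 is highest in MT and lowest in GAS.

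Uptake held the gene with the lowest p of the 32. Cd36 (ENSMUSG00000002944, chromosome 5, 17781690 to 17888801 on mm10) codes for the scavenger receptor that takes up long-chain fatty acids. It had 742 and 334 counts in MT (55.2 and 42.5 CPM), 3 and 0 in MB (0.368 and 0 CPM), and 3 and 1 in lactate-treated MB. The MT libraries thus lay close together and far above all MB. The ratio of pooled counts, scaled for depth, was 277 (exact 95% interval 94.6 to 1346, counting error only), and edgeR gave an adjusted p of 0.000345. Without MB replicate 2 this ratio was 137 (exact 95% interval 46.9 to 668), and without MB replicate 1, which leaves MB at 0, the level was at least 135-fold higher. In GAS it was at 142, 194 and 178 CPM. CD36 is also a protein of adipocytes, endothelium and macrophages. In MT replicate 1, with Cd36 at 55.2 CPM, adipocyte, endothelial, macrophage and fibroblast markers summed to 3.72, 16.8, 17.9 and 13539 CPM. In MT replicate 2, with Cd36 at 42.5 CPM, the same lists summed to 0, 0, 2.93 and 1877 CPM. The part of any of these cell types in the level of Cd36 was not tested.

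Fabp3 (ENSMUSG00000028773, chromosome 4, 130308595 to 130315463) followed the same order. It was at 20.8 and 31.0 CPM in MT, 0.368 and 0.482 CPM in MB (3 and 4 counts), and 0 and 0.178 CPM in lactate-treated MB. The groups did not overlap, and the log2FC of MT over MB was 5.88 (SE 0.70, adjusted p = 0.000497, edgeR). Slc27a1, the transporter FATP1, was at 65.4 and 179 CPM in MT and 137 and 93.6 CPM in MB, where the groups overlap, and Lpl at 14.4 and 35.6 against 15.7 and 10.6 CPM, and neither passed.

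Activation was followed through 3 long-chain acyl-CoA synthetases, of which 1 rose. Acsl3 (ENSMUSG00000032883, chromosome 1, 78657825 to 78707743), an enzyme of the endoplasmic reticulum and of lipid droplets, was at 239 and 231 CPM in MT and 32.1 and 28.4 CPM in MB. These pairs differed far more than their replicates, with a log2FC of 2.95 (SE 0.42, adjusted p = 0.00194, edgeR), and leaving out any 1 library kept the call. Acsl4, which prefers arachidonic acid, was at 131 and 215 CPM in MT and at 26.5 and 87.7 CPM in MB. Its log2FC of 1.62 (SE 0.54) missed the threshold with an adjusted p of 0.0652, and passed with the replicate number as a block (log2FC 1.80, adjusted p = 0.0230, edgeR) and without MB replicate 2 (log2FC 2.54). Acsl1, the main form of adult muscle and fat, was at 36.1 and 51.8 against 31.2 and 37.7 CPM (log2FC 0.34, SE 0.45, adjusted p = 0.640).

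By level per length, Acsl3 made up 66.4% and 54.3% of Acsl1, Acsl3 and Acsl4 together in MT. Its share was 48.3% and 24.8% in MB, and the MB replicates were far apart, as Acsl4 was at 4.90 RPKM in the first and 16.2 RPKM in the second. In GAS the order was another one, with Acsl1 at 65.0%, 69.7% and 69.0% and Acsl3 at 10.4%, 9.27% and 8.63%. Each of the 3 GAS libraries had more Acsl1 than Acsl3 and Acsl4 together.

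**Figure D3:**
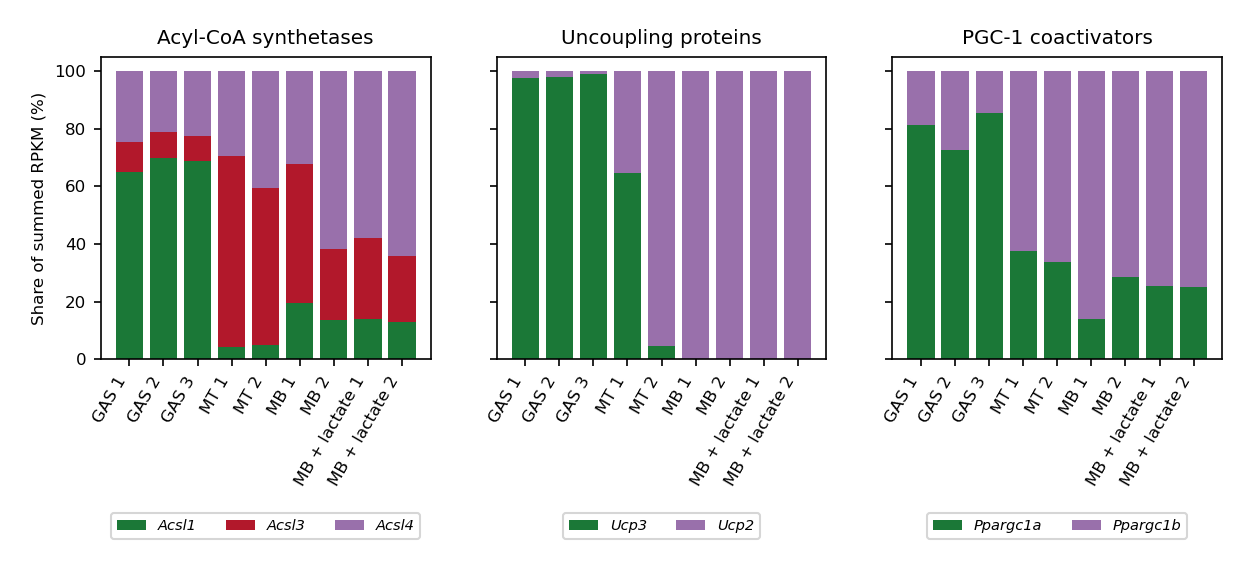
Share of summed RPKM (%) taken by each gene within 3 small families, 1 bar per library. Acsl1 leads in GAS and Acsl3 in both MT libraries. Ucp3 makes up nearly all of the uncoupling pair in GAS, and its bars in MB stand on 0 counts of Ucp3 and 1 to 10 of Ucp2. Ppargc1a leads in GAS and Ppargc1b in the cultures.

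The carnitine shuttle did not pass the test in any of its 3 tested genes. Cpt1a, the liver form of the entry enzyme that is also used by many cultured cells, was at 24.5 and 47.4 CPM in MT and 52.9 and 51.2 CPM in MB (log2FC -0.56, SE 0.47, adjusted p = 0.444, edgeR). Cpt2, which reforms acyl-CoA inside mitochondria, was at 45.0 and 44.8 against 43.8 and 32.8 CPM, and Slc25a20, the carrier of acylcarnitines, at 52.3 and 62.2 against 37.7 and 28.8 CPM. Cpt1b, the muscle form of the entry enzyme, had 0 counts in all 6 cultured libraries and 5.18, 5.57 and 3.58 CPM in GAS. Its share of the pair's RPKM was 51.2%, 50.0% and 31.1% in GAS and 0 in the cultures. This level is uncertain, since 81.4% of its exonic bases also belong to a readthrough gene model on the same strand that was not analysed here, and how reads on both were counted is not given in the sources used here.

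In the spiral, the dehydrogenases of the first step had positive estimates for long and medium chains and a negative one for short chains, and none passed. Acadvl was at 159 and 113 CPM in MT and 72.4 and 57.0 CPM in MB (log2FC 1.07, SE 0.44, adjusted p = 0.126, edgeR). Acadm was at 123 and 130 against 56.5 and 71.8 CPM (log2FC 0.99, SE 0.41, adjusted p = 0.124). The groups did not overlap for either, nor for Acadl, with 202 and 295 against 153 and 138 CPM. Of all genes tested, 32.9% were likewise higher in MT without overlap. Acads, the short-chain enzyme, was at 42.5 and 63.1 CPM in MT and 95.0 and 52.1 CPM in MB, where the groups overlap.

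Of the 5 genes for the later steps, Acaa2, the thiolase that ends the cycle, came nearest to the threshold. It was at 123 and 224 CPM in MT and 87.7 and 48.9 CPM in MB (log2FC 1.30, SE 0.49, adjusted p = 0.0964, edgeR). Hadhb was at 120 and 139 against 76.8 and 69.7 CPM, without overlap, and its partner Hadha at 150 and 299 against 191 and 141 CPM, with overlap. By level per length Hadha made up 49.4% to 50.4% of the pair in the 3 GAS libraries and 48.6% and 62.0% in MT, 65.3% and 60.5% in MB. Hadh and Echs1 had log2FC of -0.38 and -0.12. Decr1, which handles unsaturated chains, was at 40.9 and 62.4 CPM in MT and 27.8 and 18.9 CPM in MB (log2FC 1.11, adjusted p = 0.141, edgeR), and Eci1 and Eci2 had log2FC of -0.01 and 0.04.

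Electron transfer also stayed short of the threshold. Etfdh, the enzyme that passes electrons on to ubiquinone, was at 99.0 and 68.0 CPM in MT and 29.3 and 44.0 CPM in MB (log2FC 1.22, SE 0.45, adjusted p = 0.0917, edgeR). Etfa was at 245 and 187 against 78.3 and 134 CPM (log2FC 1.06) and Etfb at 128 and 139 against 123 and 87.3 CPM (log2FC 0.33). MT was above MB without overlap for all of the 3, as it was for 32.9% of all genes tested. Summed over the 19 mitochondrial genes, the level was 671 and 795 RPKM in MT, 508 and 423 RPKM in MB, and 637 and 405 RPKM in lactate-treated MB. The last pair spans the other values of MB, and the first replicate was the higher one in both kinds of MB.

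**Figure D4:**
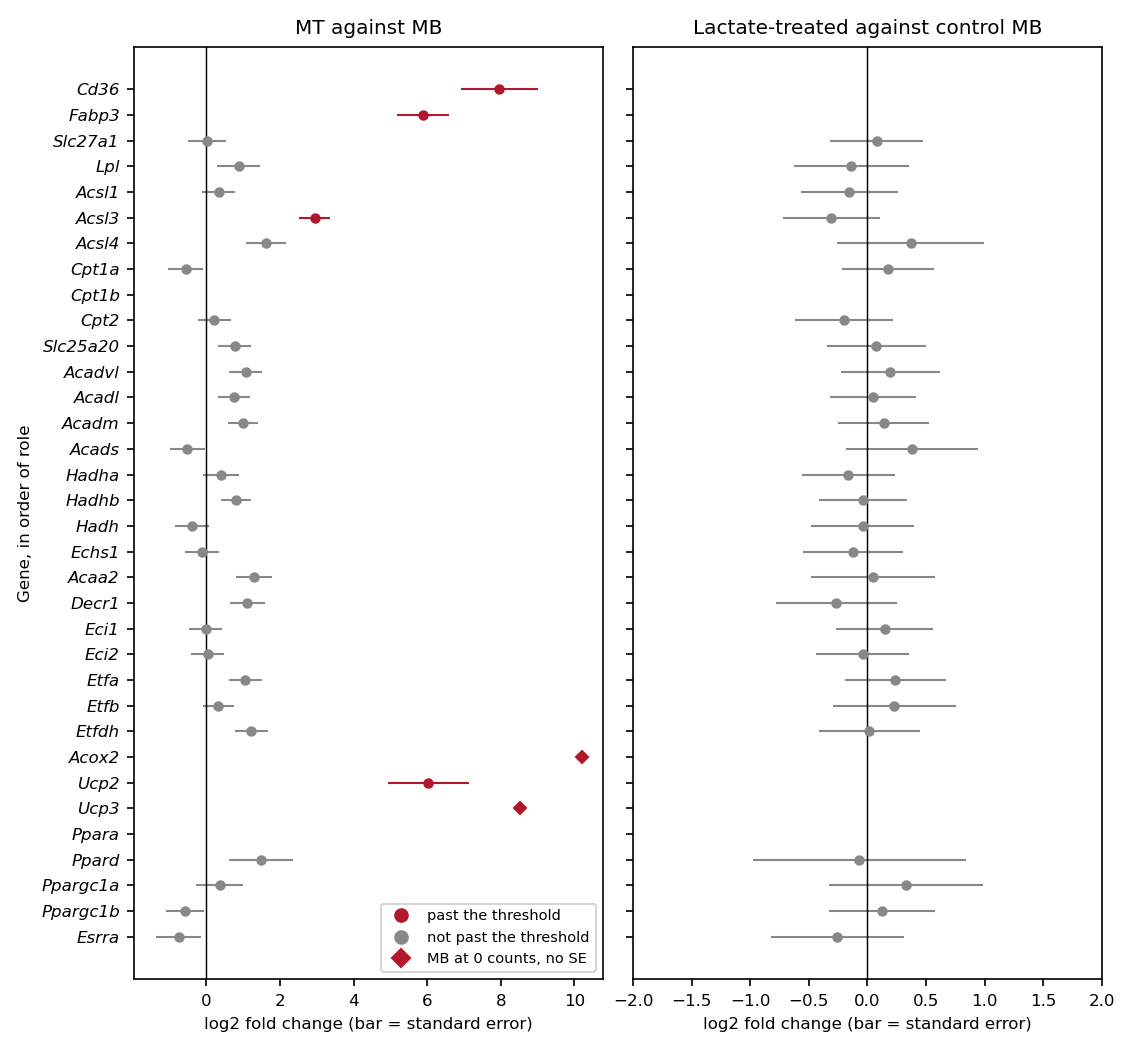
log2 fold change and its standard error for MT against MB (left, 32 genes) and lactate-treated against control MB (right, 27 genes, on a narrower scale), with genes on the vertical axis in order of role. The 6 red symbols on the left are past the threshold, 2 of them (diamonds) without a standard error because MB had 0 counts. All points on the right lie between -0.31 and 0.38.

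Peroxisomal Acox2 (ENSMUSG00000021751, chromosome 14, 8225511 to 8259353) rose from 0 counts in both MB libraries to 133 and 173 counts in MT (9.90 and 22.0 CPM). Set against 3 counts in a library of MB, it was at least 43.4-fold higher (adjusted p = 0.00112, edgeR), and at least 26.9-fold without MT replicate 2. One lactate-treated MB library had 1 count. MT was above the 0.203 to 0.305 CPM of GAS, and of the 6 genes that rose Acox2 and Acsl3 were lower in every GAS library than in both MT libraries, Ucp2 overlapped and the other 3 were higher, on scales set separately.

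Both uncoupling proteins rose, with Ucp2 higher in MT replicate 2 and Ucp3 in MT replicate 1. Ucp2 (ENSMUSG00000033685, chromosome 7, 100493337 to 100502020), which is found in many tissues, was at 9.16 and 86.5 CPM in MT and 1.23 and 0.121 CPM in MB (log2FC 6.03, SE 1.10, adjusted p = 0.00665, edgeR). The size of this rise rested on single libraries, with a log2FC of 6.88 without MT replicate 1, 3.61 without MT replicate 2, 8.42 without MB replicate 1 and 5.09 without MB replicate 2, and the call held in all 4. Ucp3 (ENSMUSG00000032942, chromosome 7, 100472990 to 100486432), the muscle form, was at 7.52 and 1.91 CPM in MT (101 and 15 counts) and had 0 counts in all 4 MB libraries with and without lactate. Against 3 counts it was at least 12.8-fold higher (adjusted p = 0.00993, edgeR), at least 5.19-fold without MT replicate 1 and at least 20.5-fold without MT replicate 2. This call was lost without MB replicate 1 (adjusted p = 0.0633) and without MB replicate 2 (adjusted p = 0.0547). Ucp3 made up 64.7% of the pair's RPKM in MT replicate 1 and 4.69% in MT replicate 2, beside 97.6%, 98.0% and 99.0% in GAS, and the order of the pair differed between the MT libraries.

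Regulators of the pathway did not pass in MT against MB. Ppargc1a, the coactivator PGC-1 alpha that drives mitochondrial genes, was at 9.75 and 13.4 CPM in MT and 4.53 and 13.7 CPM in MB (log2FC 0.37, SE 0.64, adjusted p = 0.735, edgeR). Ppargc1b was at 9.75 and 15.8 against 17.0 and 21.0 CPM (log2FC -0.59), and Esrra at 6.48 and 7.12 against 14.5 and 8.07 CPM (log2FC -0.75). Both were lower in MT without overlap, as were 29.2% of all genes tested. Ppard was at 5.66 and 2.80 against 1.84 and 1.21 CPM (log2FC 1.49, SE 0.86). Ppara, the PPAR form that drives fat oxidation in liver and muscle, had 55 counts in MT replicate 1, 1 in MT replicate 2, 1 and 0 in MB, and 0 in both lactate-treated libraries. MT replicate 1 also had more genes detected and higher summed markers of other cell types than MT replicate 2. Fibroblast markers were present in MT replicate 2 too, at 1877 CPM. The part of other cell types in the Ppara values was not tested. In GAS Ppara was at 6.40, 8.45 and 7.99 CPM.

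Other genes of fat metabolism, taken from lists of textbook pathways, gave calls in both directions, to be read beside the 11.0% of all genes tested that were higher and the 6.86% that were lower. Among 14 tested genes of other transport and activation, 2 were higher and 2 lower in MT, which became 1 and 1 without MT replicate 1, and 1 higher without MB replicate 1. Fabp5, the binding protein of skin and proliferating cells, fell from 175 and 121 CPM in MB to 8.49 and 9.16 CPM in MT (log2FC -4.08, SE 0.44). The synthetase Acsl5 fell from 125.2 and 217 to 30.0 and 61.4 CPM (log2FC -1.91, SE 0.47). The log2FC of Acsl5 was -1.52 without MT replicate 1 and -2.59 without MT replicate 2. Acsl6 rose from 0.980 and 0 CPM to 38.5 and 32.4 CPM (log2FC 6.12, SE 0.95), with a log2FC of 5.01 without MB replicate 2 and, without MB replicate 1, a level at least 98.1-fold higher. Acacb, whose product malonyl-CoA inhibits entry into the shuttle, rose from 0 and 2 counts to 104 and 21 (ratio of pooled counts scaled for depth 48.3, exact 95% interval 13.1 to 403). The ratio was 22.0 without MT replicate 1 and 24.4 without MB replicate 1, where the call was lost, and the rise was at least 14.2-fold without MB replicate 2. Acsl6 and Acacb were near 0 in MB and passed the filter through MT, so that they could only be higher there. With Fabp3 and Acsl3 above, the binding proteins and synthetases thus held members that rose and members that fell.

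Among 20 other oxidation enzymes 2 were higher and 0 lower, the dehydrogenases Acadsb (92.0 and 103 CPM against 10.7 and 22.7, log2FC 2.57) and Acad11 (18.8 and 22.0 against 3.68 and 1.93, log2FC 2.83). Those 2 are 10.0% of the 20, near the 11.0% of all genes tested. Other peroxisomal enzymes had 3 higher and 0 lower of 13 tested (23.1% higher, beside 11.0% of all genes tested). These calls were lost without MT replicate 1. The 3 were Acox3 (log2FC 1.81), the thiolase and carrier gene Scp2 (1.86) and Hacl1 (2.34, and 1.59 without MT replicate 1), which cleaves branched chains. Acox3 had a log2FC of 1.56 without MT replicate 1, 1.85 without MT replicate 2 and 1.42 without MB replicate 2. The list of other regulators and PPAR targets had 0 higher and 2 lower of 20 tested, with 1 lower when MT replicate 1 or MB replicate 1 was left out and 1 higher without MB replicate 2. Pprc1, a relative of PGC-1, fell from 181 and 162 CPM to 24.8 and 46.3 CPM (log2FC -2.30). Its log2FC was -1.96 without MT replicate 1 and -2.89 without MT replicate 2. Angptl4, an inhibitor of lipoprotein lipase, fell from 20.6 and 11.3 to 2.53 and 0.382 CPM (log2FC -3.36). The log2FC of Angptl4 was -5.42 without MT replicate 1, -2.77 without MT replicate 2 and -2.95 without MB replicate 1. The largest adjusted p among the genes named in this paragraph was 0.0469, that of Acox3 (edgeR).

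In lipid storage and lipolysis 3 of 15 tested were higher and 1 lower, with 1 higher when either MB library was left out and 0 lower when either MT library was. Lpin1, a phosphatidate phosphatase and coactivator, rose from 5.27 and 2.29 CPM to 54.8 and 40.7 CPM (log2FC 3.64, SE 0.57), with 4.34 without MB replicate 1 and 3.02 without MB replicate 2. Mgll, a monoglyceride lipase, and the lipid droplet gene Cidea were at 0 counts in MB and at least 8.02-fold and 3.35-fold higher in MT, calls that were lost without either MB library, and that of Cidea also without MT replicate 2, while without MT replicate 1 Cidea did not pass the filter. Mgll and Cidea passed the filter through MT, so that they too could only be higher there. Lower in MT was G0s2, an inhibitor of lipolysis (log2FC -1.61, SE 0.45). Fatty acid synthesis had 2 higher and 0 lower of 15 tested (1 lower without MT replicate 2 or without MB replicate 2), the desaturase Scd1 at 249 and 406 against 69.6 and 29.0 CPM (log2FC 2.68, with 3.45 and 2.07 without MB replicates 1 and 2) and Acss2, which activates acetate, at 115 and 71.5 against 7.60 and 3.37 CPM (log2FC 4.08, with 4.75 and 3.46 without the same libraries). The 2 are 13.3% of the 15, beside 11.0% of all genes tested. The median log2FC of the 6 lists ranged from -0.05 to 1.03, the highest in the peroxisomal list and the lowest in fatty acid synthesis.

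The comparison of lactate-treated with control MB asks whether added lactate alters these genes in the same cells. The threshold was a p under 0.01 and an absolute log2FC over 0.5 in edgeR's test. In either direction 0 of 27 tested genes passed, beside 0% of 11804 genes tested. The study, with edgeR at the same threshold, reported a small group of genes past it in both directions. This fit did not recover them, so the 0 of 27 is not particular to these genes. With an unadjusted p under 0.05 in edgeR's test there were also 0 of 27, beside 5 of the 11804. The lowest p of all genes in this fit was 0.024, so none came under 0.01. With DESeq2 at the same call 0 of the members passed. The log2FC of the 27 genes ran from -0.31 to 0.38 with a median of 0.05 and standard errors of 0.37 to 0.91. Acsl3, Acads and Acsl4 had the lowest unadjusted values of the test, at 0.484, 0.522 and 0.576. Cpt1a was above control in both libraries (53.8 and 66.3 against 52.9 and 51.2 CPM) and Acsl3 below it (24.2 and 25.8 against 32.1 and 28.4 CPM). These 2 were the tested genes without overlap, where 4.28% of all genes tested were higher and 6.84% lower without overlap. A change of the size of these standard errors was not detectable with 2 libraries per group in this fit, which has no term for replicate number.

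The genes that rose in MT from near 0 in MB stayed low with lactate, while Acsl3, which also rose in MT, was tested and is given above. Cd36 had 3 and 1 counts, Fabp3 0 and 1, Acox2 1 and 0, Ucp3 0 and 0, and Ucp2 7 and 1 counts in the lactate-treated libraries, so these were not tested. Differences between replicates were larger than those between treatments for several genes. Etfb was at 183 and 71.5 CPM with lactate and at 123 and 87.3 CPM without, Acads at 142 and 56.0 against 95.0 and 52.1 CPM, and Acaa2 at 100.1 and 45.7 against 87.7 and 48.9 CPM. In each case the first replicate was the higher one in both groups, and it is also the replicate with the larger share of ribosomal RNA. The part of that share in these values was not tested.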

How the data were processed

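RNA sequencing of mouse GAS (3 libraries), MB, MT and lactate-treated MB (2 each) was used. The authors trimmed reads with Trim Galore 0.6.6, aligned them to mm10 with HISAT2 2.2.1 and counted them per gene with featureCounts of Subread 2.0.1, which gave the deposited raw counts. GAS libraries were poly(A) RNA and cultured cells Smart-seq2. The annotation release and the handling of strand are not given in the sources used here. GENCODE M21 supplied gene models and lengths, and RefSeq the windows before the starts.

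CPM used TMM factors computed within GAS and within the 6 cultured libraries, and RPKM divided them by the length of all annotated exons. Comparisons used edgeR 4.0.16 in R 4.3.3, with its filter on low counts, TMM and glmQLFTest, and adjusted p over all genes tested (Benjamini-Hochberg). Thresholds were an adjusted p under 0.05 for MT against MB and a p under 0.01 for lactate, with an absolute log2FC over 0.5. Alternatives changed the scaling, filter, test, threshold, the term for replicate number and the libraries. A bound was taken against 3 counts in a library at 0. DESeq2 1.42.0 was an alternative.

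Replicates are separate samples by their labels. Whether they came from separate mice is not stated for the cultures, so p values there measure the spread between these samples. The members and lists were chosen with earlier results of these data known. Values in every library are given for members past the threshold, those at 3 counts or fewer in a group and small families, and of other lists for at most the 3 largest log2FC up and down. Intervals and bounds cover counting error only. CUT&Tag data were not used here. Python 3.11 libraries drew the figures.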

Additional observations from a re-analysis of the deposited data

How the results depend on the processing

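Of the 34 genes, 6 to 9 were higher in MT under all alternatives but 1, and 0 lower under all. The exception was a minimum of 10 counts in every library, which removes genes near 0 in MB and left 1, Acsl3. The count was 7 with DESeq2, with no filter and with the replicate block, and 9 at an adjusted p under 0.1. The genes counted were not the same under every alternative, also where the count was near 6. Acsl4 passed with DESeq2, with no filter, with the block, without MB replicate 2 and at an adjusted p under 0.1, and Ucp3 was lost without either MB library. With the replicate numbers as a block, alone or with all 6 cultured libraries, the 7 genes were the 6 and Acsl4. Same-numbered MT and MB libraries deviated with a correlation of -0.132 and lactate-treated and control MB with 0.702, over 2 pairs each. The labels give only replicate numbers, and the main fits did not take them as pairs. For lactate the main fit thus counts a difference shared by same-numbered libraries as spread. With the block, 0 members passed there too. Crossing the numbers, chosen after seeing the data, gave 6 higher members, 1 higher peroxisomal enzyme, 1 lower regulator and 1 lower gene of fatty acid synthesis.

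In the other lists, other transport and activation had 1 higher with no filter, 0 with at least 10 counts, and 1 to 3 higher and 1 to 3 lower when each library was left out. Other oxidation enzymes had 4 higher with DESeq2 and at an adjusted p under 0.1. Peroxisomal enzymes had 0 to 4 higher with each library left out. Other regulators and PPAR targets had 1 higher with DESeq2 size factors, DESeq2, at least 10 counts and all 6 libraries with or without the block, 3 higher and 4 lower at an adjusted p under 0.1, 1 lower with at least 10 counts, and 0 to 1 higher and 1 to 3 lower with each library left out. Lipid storage had 1 higher with no filter and 1 higher and 0 lower with at least 10 counts, and 1 to 3 higher and 0 to 1 lower with each library left out. Fatty acid synthesis had 0 to 1 lower with each library left out. The cause of the changes with the test and scaling was not tested.

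With lactate, 0 members passed under any alternative, and leaving out each library moved the log2FC of Acads between -0.38 and 0.98 and that of Acsl4 between -0.18 and 1.49. Of the GAS levels of 6 genes, 4 of 30 alternative values moved by more than 1 SD, and of the shares within families 21 of 48 did. With 2 libraries per group and 5198247 to 10839516 counts, small changes could not be told from the spread, and 3 counts set the floor for genes absent from MB.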
